A study of Mus musculus with 51 samples.

Results

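The genes described here had higher signals in alveolar macrophages of gp91phox-/- mice (KO) than in those of C57Bl/6 mice (WT) in every condition that both genotypes shared. They were selected on that difference. A gene was kept when the KO group mean minus the WT group mean had 1 sign and a size of at least 0.8 on the log2 scale in each of 7 conditions, with signals under 50 set to 50 and 1 probe set per gene, the one with the highest mean over all arrays. Of 12393 genes, 63 met these differences in either direction, which is 0.508% of the genes, and 56 of them form the set after 9 named genes were left out by the rule. All 56 were higher in KO and 0 were lower. Every value of KO against WT for these genes below is therefore a description of what was selected and carries no test.

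The study instilled polystyrene beads or Aspergillus fumigatus conidia, the spores of that mould, into mouse lungs, and RNA of the alveolar macrophages was hybridized to Affymetrix mouse arrays. KO macrophages were untreated at 0 h, or were taken 2 h or 4 h after mock instillation, a conidial dose labelled e6 or a dose labelled e7, with 3 arrays in each of the 7 groups. WT macrophages came from the same 7 conditions with 4 arrays each, and a further WT group of 2 arrays received beads for 4 h. That gave 51 arrays, 21 from KO and 30 from WT mice. WT values below are those of the 28 WT arrays of the shared conditions, and the bead arrays are named where they enter. The labels give no age, no sex, no breeding history and no number of mice per array, and the treatment field of the WT mock arrays at 4 h names conidia where their titles name mock, so the titles were followed.

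Alveolar macrophages are the resident phagocytes of the airspaces. They take up inhaled spores and surfactant, sense lipids and nucleotides, and signal to other cells through chemokines, surface ligands and enzymes released outside the cell. The gp91phox protein, the product of Cybb, is the catalytic subunit of the phagocyte NADPH oxidase, the complex that makes superoxide after uptake of microbes. Mice without it are a model of chronic granulomatous disease, in which Aspergillus infection is a known problem.

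Cybb itself was among the left-out genes and had signals of 109.5, 358.0 and 535.2 (lowest, median and highest) on the 21 KO arrays, against 1541, 2206 and 4436 on the 28 WT arrays of the shared conditions. No KO array reached the lowest WT array. Fstl1, a secreted glycoprotein, had the widest gap of the left-out genes, with 3691, 5629 and 8173 on KO arrays against 0.903, 21.6 and 46.5 on WT arrays. Of the 9 left-out genes, 7 met the differences, and Arg1 and Tgfb2 did not.

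The summed signal of 12 alveolar macrophage markers ranged from 112400 to 137700 on KO arrays and from 97800 to 138100 on WT arrays, and none of them was under 50 on all arrays. The summed neutrophil markers ranged from 1179 to 3877 on KO arrays and from 1069 to 26770 on WT arrays, with medians of 2686 and 1593. S100a8, a calcium-binding protein abundant in neutrophils, was higher in KO by 1.96 ± 0.36 (limma adjusted p = 3.75e-05), with medians of 1520 on KO arrays and 220.8 on WT arrays. Csf3r of the same list went the other way, at -0.75 ± 0.12 (limma adjusted p = 2.91e-06). S100a9 was not called, at -0.16 ± 0.44 (limma adjusted p = 0.794). The median KO minus WT difference of the 10 tested neutrophil markers was -0.09. The top of the WT range was set by 3 arrays at 4 h, mock replicate 3 at 26770, e6 replicate 4 at 12720 and e7 replicate 3 at 8970, and every other WT array lay below the highest KO array. Values with and without these 3 arrays are given beside many of the results they touch. The tests over gene lists are given only with them. The share of probe sets with a signal under 50 was 32.6% to 44.4% on KO arrays and 41.4% to 44.9% on WT arrays, and the 3'/5' ratio of the control probe sets (log2), a sign of RNA length, was 0.92 to 3.99 on KO arrays and 0.93 to 4.85 on WT arrays. Bead replicate 1 stood apart with 30.1% of probe sets under 50, below every other array, and bead replicate 2 had 43.6%, and their 3'/5' ratios were 4.11 and 5.32. The part of these measures in the differences between the genotypes was not tested.

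Over the 56 genes, the mean KO minus WT difference over the 7 conditions ranged from 1.06 to 3.48 on the log2 scale, with a median of 1.72. As folds these are 2.08, 11.2 and 3.30. The genes just inside the limit were P2rx4 with a smallest difference of 0.81, Adhfe1 with 0.82 and Got1 with 0.82, and those just outside were C2cd2 with 0.78, Xdh with 0.78 and Ifitm2 with 0.78. In 25 of the 56 genes every KO array lay above every one of the 28 WT arrays, and in 1 of them, Aig1, bead replicate 1 at 425.9 lay above the lowest KO array at 334.9. Within single conditions, 41 genes had no overlap in any of the 7, and the matching count over all genes is not given here. The full separation was true of 46 of all 12393 genes, 0.371%, and nothing is read from that gap because the rule used the same arrays. Without the 3 WT arrays high in neutrophil markers the count of separated genes was 33, and the rule itself then kept 58 genes, 54 of them among the 56. The counts of 41 and 33 have no matching share over all genes here, so nothing is read from them.

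The mean log2 signal over the 56 genes was 8.90 to 9.85 on KO arrays, with a median of 9.31, against 7.27 to 7.87 on WT arrays, with a median of 7.46. The highest WT array was mock 4 h replicate 3, which also had the most neutrophil marker signal, and without the 3 such arrays the WT range ended at 7.74. The bead arrays stood at 7.78 and 7.45, and no WT or bead array reached the lowest KO array. In samples of many cells, a smaller number of cells with a transcript and less of it per cell cannot be told apart.

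**Figure D1:**
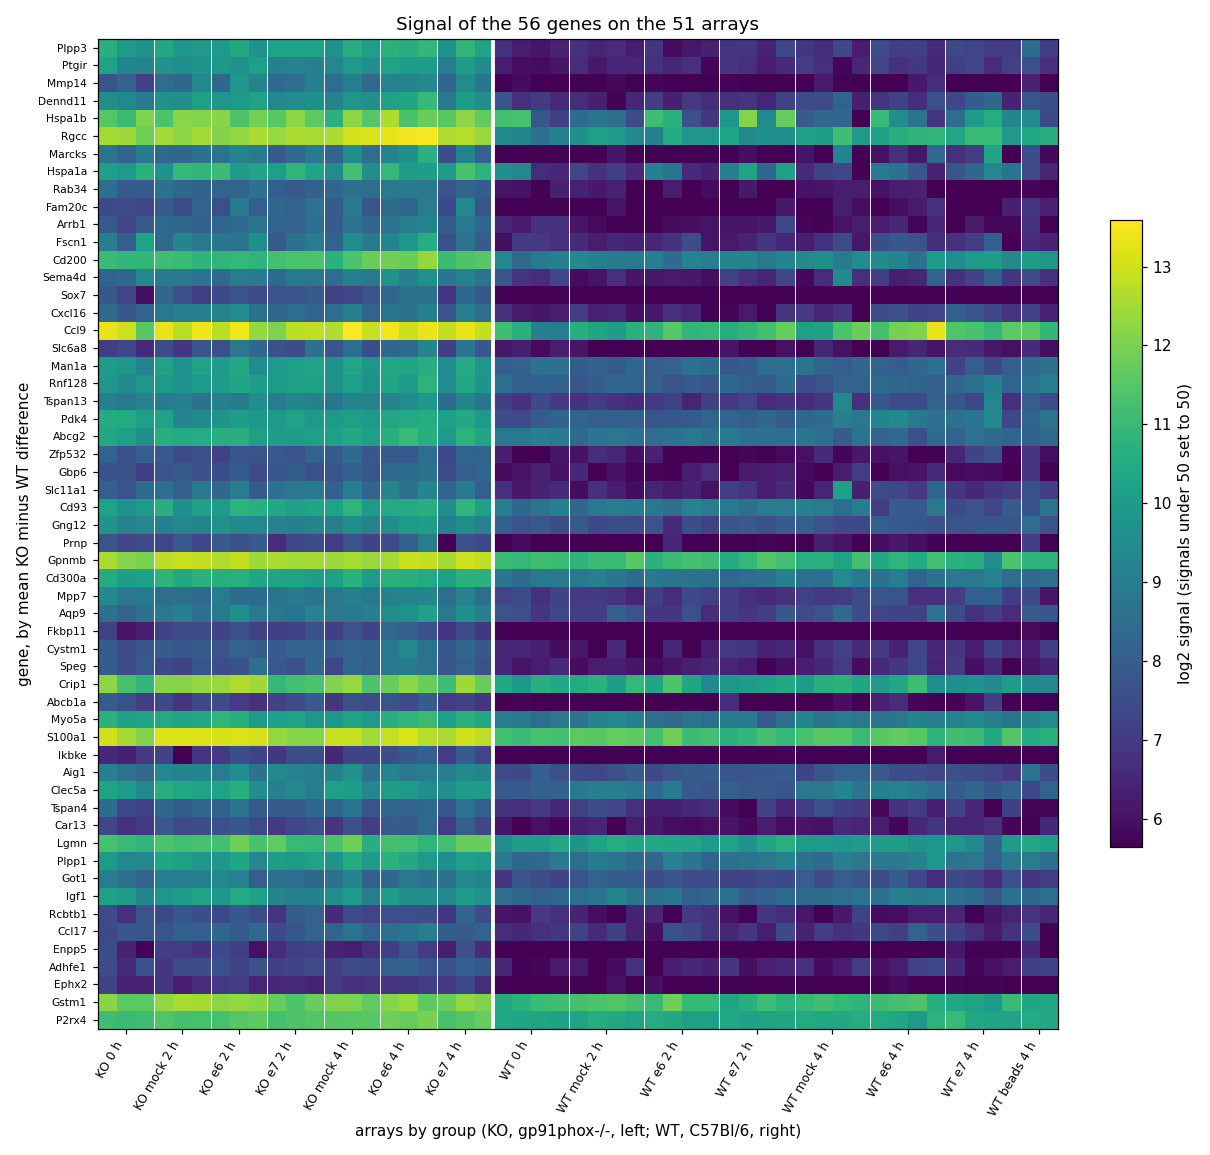
Log2 signal (colour) of the 56 genes (rows, ordered by mean KO minus WT difference) on all 51 arrays (columns, KO groups left of the thick line, WT groups and the WT bead arrays right of it). The KO columns are lighter (higher) as a block, with single WT arrays as bright as KO in rows such as Hspa1b, Marcks and Slc11a1, and with array means of 8.90 to 9.85 for KO and 7.27 to 7.87 for WT in the shared conditions.

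Promoter sequences are shown for 5 of the genes, those with the largest differences and 3 that hold a motif, since the genes differ together between the genotypes. RefSeq promoter entries of build GRCm38.p6 matched 41 of the 56 genes with 55 starts. Plpp3 lies at chr4:105157097-105157396 and Ptgir at chr7:16906240-16906539, both on the plus strand. Rab34 lies at chr11:78188177-78188476 and Gpnmb at chr6:49036268-49036567 on the plus strand, and Ccl9 at chr11:83578587-83578886 on the minus strand; each holds a motif of the AP-1 factors. Capitals mark the letters of 4 motifs searched on both strands, TGANTCA for AP-1, TCATGTG for the M-box of the MITF and TFE factors, GAGGAAGT for PU.1 and TATAAA for the TATA box.
Plpp3: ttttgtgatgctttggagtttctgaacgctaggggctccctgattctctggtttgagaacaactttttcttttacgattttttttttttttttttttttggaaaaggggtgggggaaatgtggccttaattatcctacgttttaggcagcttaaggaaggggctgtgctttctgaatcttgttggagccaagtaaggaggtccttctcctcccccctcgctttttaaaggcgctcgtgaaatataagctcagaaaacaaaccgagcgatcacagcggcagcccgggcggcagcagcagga
Ptgir: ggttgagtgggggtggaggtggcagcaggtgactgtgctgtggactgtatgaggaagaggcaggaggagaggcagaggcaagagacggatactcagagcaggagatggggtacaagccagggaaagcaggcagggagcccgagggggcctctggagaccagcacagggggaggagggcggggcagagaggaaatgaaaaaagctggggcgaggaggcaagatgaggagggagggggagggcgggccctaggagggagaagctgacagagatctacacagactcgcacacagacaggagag
Rab34: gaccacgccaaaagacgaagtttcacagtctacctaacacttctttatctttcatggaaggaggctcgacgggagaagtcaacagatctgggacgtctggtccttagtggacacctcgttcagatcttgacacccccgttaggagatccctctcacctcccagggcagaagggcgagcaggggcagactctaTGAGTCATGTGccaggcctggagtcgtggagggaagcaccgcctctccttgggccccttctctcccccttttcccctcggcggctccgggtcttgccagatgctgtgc
Gpnmb: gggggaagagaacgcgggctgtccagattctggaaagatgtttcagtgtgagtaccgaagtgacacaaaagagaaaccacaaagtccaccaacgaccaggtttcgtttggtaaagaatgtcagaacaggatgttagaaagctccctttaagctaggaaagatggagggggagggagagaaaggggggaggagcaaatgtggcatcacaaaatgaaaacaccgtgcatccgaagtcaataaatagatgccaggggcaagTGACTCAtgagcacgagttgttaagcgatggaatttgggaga
Ccl9: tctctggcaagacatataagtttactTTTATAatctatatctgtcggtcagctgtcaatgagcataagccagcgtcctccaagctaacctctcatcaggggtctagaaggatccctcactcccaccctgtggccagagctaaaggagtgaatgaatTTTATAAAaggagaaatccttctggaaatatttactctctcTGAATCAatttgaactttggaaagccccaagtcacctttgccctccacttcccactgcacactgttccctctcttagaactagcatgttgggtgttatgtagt
In Rab34 the AP-1 and M-box letters overlap. The AP-1 letters stood in 9 of the 55 starts, 16.4%, in Aqp9, Ccl9, Gpnmb, Igf1, Ikbke, Prnp, Rab34, Sema4d and Tspan4, against 6.45% of the 12559 starts of all measured genes. The M-box letters stood in 3.64% of the starts, in Abcb1a and Rab34, against 2.48%. The PU.1 letters stood in 1.82%, in Abcg2 alone, against 2.78%, and the TATA letters in 14.5% against 9.8%. A match describes letters in the window and is not a bound site.

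The largest differences belonged to genes that act on lipid messengers. Plpp3 encodes a phosphatase that removes phosphate from lysophosphatidic acid and related lipids at the cell surface. Its signal was 823.9, 1211 and 1894 (lowest, median, highest) on KO arrays, against 58.5, 108.9 and 174.1 on WT arrays. The genotypes did not overlap, the difference was 3.06 to 3.72 over the 7 conditions, and another probe set of the gene gave a mean of 3.91. Ptgir encodes the receptor for prostacyclin, which signals through cyclic AMP, and had 517.6, 824.0 and 1214 on KO arrays against 54.0, 100.1 and 158.3 on WT arrays. Its difference was 3.53 in untreated macrophages and 2.41 after e7 at 4 h, the highest and the lowest of the 7 conditions.

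Of the other genes for lipid phosphates and G-protein signalling, Arrb1 (beta-arrestin 1, which switches off G-protein-coupled receptors) differed by 2.23 and Gng12 (a G-protein gamma subunit) by 1.72. Plpp1, a phosphatase related to Plpp3, had 636.6, 1054 and 1666 on KO arrays against 289.4, 437.0 and 910.2 on WT arrays. P2rx4, a channel opened by extracellular ATP, had the smallest mean difference of the set, with 2046, 2789 and 3966 on KO arrays against 978.7, 1315 and 2039 on WT arrays. Even there no WT array reached the lowest KO array.

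Enzymes that act on secreted proteins formed the next group. Mmp14 encodes a membrane-bound collagenase that also activates the gelatinase Mmp2. It had 148.7, 377.6 and 905.0 on KO arrays against 12.7, 39.0 and 101.7 on WT arrays. On 20 of the 28 WT arrays its signal was under 50, so its difference of 2.00 to 3.44 is bounded by the floor. Its second probe set had a KO median of only 49.9 and differed by 0.44 on average. Fam20c, the Golgi kinase of secreted proteins, likewise had 19 WT arrays under 50 and a KO median of 259.4 against a WT median of 39.0. Man1a, a mannosidase that trims sugars in the Golgi, differed by 1.86, Lgmn, the lysosomal protease legumain, by 1.27 and Enpp5, a phosphodiesterase, by 1.18.

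Fkbp11, a protein-folding enzyme of the endoplasmic reticulum, was under 50 on all 28 WT arrays and above it on every KO array, with 66.8, 153.3 and 326.8 there. Sox7, a transcription factor, was the other gene under 50 on every WT array, with 62.2, 206.1 and 392.8 on KO arrays against 1.20, 13.4 and 27.6 on WT arrays. In all, 10 of the 56 genes had a WT median under 50, and 31 had no array under 50 in either genotype in the shared conditions. For genes with floored arrays the stated differences depend on the floor.

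Rgcc, which encodes a regulator of the cell cycle that responds to complement, had 3625, 6143 and 11520 on KO arrays against 369.8, 982.0 and 2273 on WT arrays, and the difference held in another probe set with a mean of 2.75. Among the other regulators, Rnf128 (an E3 ubiquitin ligase) differed by 1.85, Gbp6 (a guanylate-binding protein induced by interferon) by 1.79 and Zfp532 (a zinc finger protein) by 1.79. Ikbke, a kinase of the interferon and NF-kappaB pathways, was under 50 on 26 WT arrays. Rcbtb1 overlapped in 3 of the 7 conditions, with 7 WT arrays at or above the lowest KO array.

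Genes for the cytoskeleton and membrane traffic made up 9 of the 56. Dennd11, a DENN-domain protein, a family that acts on Rab GTPases, had 464.0, 791.9 and 1992 on KO arrays against 52.9, 116.1 and 305.9 on WT arrays. Rab34, a GTPase of macropinosomes and phagosomes, differed by 2.09 to 2.77, and its second probe set by 2.30 on average. S100a1, a calcium-binding protein, had 4343, 7640 and 9201 on KO arrays against 1403, 2425 and 3759 on WT arrays. Neither gene overlapped between the genotypes. Myo5a, a myosin that carries vesicles, had 926.2, 1307 and 2136 on KO arrays against 250.1, 456.6 and 670.1 on WT arrays. Crip1, a small zinc-binding LIM protein, differed by 1.60, Speg, a kinase of striated muscle, by 1.61 and Mpp7, a scaffold protein of cell polarity, by 1.69.

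Fscn1 and Marcks, which bundle and tether actin filaments, were less clear. Fscn1 had 191.8, 443.1 and 1557 on KO arrays against 48.4, 102.5 and 257.9 on WT arrays with the chosen probe set, whose difference averaged 2.13. Its other 3 probe sets averaged 0.04, 0.00 and -0.08, and 1 of those had a KO median of 74.8. Marcks had 182.9, 406.0 and 1682 on KO arrays against 28.7, 46.9 and 1278 on WT arrays. Its 3 highest WT arrays, at 1278, 601.1 and 326.9, were the 3 arrays high in neutrophil markers. Its other 5 probe sets were all higher in KO in the 7 conditions, by 0.49 to 1.96 on average.

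The 10 surface proteins differed by 1.40 to 2.04. Cd200, the ligand of an inhibitory receptor on myeloid cells, had 1666, 2290 and 5186 on KO arrays against 333.6, 595.0 and 1057 on WT arrays. Gpnmb, a glycoprotein of lysosomes and the cell surface, had 4079, 6168 and 8216 on KO arrays against 724.2, 2028 and 2987 on WT arrays. Cd300a, an inhibitory receptor for phospholipids, and Cd93, a C-type lectin-like receptor, also showed no overlap. Clec5a, a C-type lectin that signals through the adaptor DAP12, did overlap, with 5 WT arrays at or above the lowest KO array. Sema4d, a semaphorin, differed by 2.02, the tetraspanins Tspan13 and Tspan4 by 1.84 and 1.40, and Cystm1, a small membrane protein, by 1.62. For Sema4d (684.2 and 289.8) and Tspan13 (655.7 and 642.4), only WT arrays high in neutrophil markers reached the lowest KO array. Prnp, the prion protein, had 18 WT arrays under 50, and 10 WT arrays were at or above its lowest KO array, e7 4 h replicate 1 at 49.5. The next lowest KO array of Prnp stood at 101.3, above the highest WT array at 94.4.

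Of the 5 transporters, Abcg2 (an efflux pump that also exports porphyrins) had 754.8, 1369 and 2034 on KO arrays against 189.8, 390.0 and 544.7 on WT arrays. Slc11a1, the metal transporter of phagosomes also known as Nramp1, had 204.3, 378.8 and 613.0 on KO arrays against 56.4, 94.5 and 1165 on WT arrays. Its highest WT arrays, at 1165 and 304.0, were mock 4 h replicate 3 and e6 4 h replicate 4, both high in neutrophil markers. The creatine transporter Slc6a8 differed by 1.89, the aquaglyceroporin Aqp9 by 1.69 and the drug pump Abcb1a by 1.54.

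The chemokines and the growth factor in the set overlapped between genotypes in each case. Ccl9 had 3036, 7624 and 12280 on KO arrays against 525.2, 1972 and 10160 on WT arrays, and its second probe set differed by 2.44. The WT array at 10160 was e6 4 h replicate 4, high in neutrophil markers. Cxcl16, a chemokine that as a membrane protein also takes up oxidized lipoproteins, had 208.5, 379.8 and 710.6 on KO arrays against 17.3, 100.3 and 273.7 on WT arrays. Ccl17, which attracts T cells through CCR4, differed by 1.19, and Igf1, insulin-like growth factor 1, by 1.20.

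The 7 metabolic enzymes had the smallest typical difference of the groups, with a median of 1.22. Pdk4, the kinase that turns down pyruvate dehydrogenase, had 611.6, 1136 and 1494 on KO arrays against 161.5, 282.7 and 695.2 on WT arrays. Gstm1, a glutathione transferase, had 2697, 4263 and 6023 on KO arrays against 1004, 2010 and 3642 on WT arrays. Ephx2, the soluble epoxide hydrolase, had a highest WT signal of 63.9 below a lowest KO signal of 78.2. Aig1, a hydrolase of fatty acid esters, differed by 1.46, Car13, a carbonic anhydrase, by 1.32, Got1, the cytosolic aspartate aminotransferase, by 1.22 and Adhfe1, an alcohol dehydrogenase of mitochondria, by 1.18.

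Hspa1a and Hspa1b, the 2 copies of the stress-inducible chaperone HSP70, varied most. They lie side by side on chromosome 17 and are near-identical, so the split of signal between them is uncertain. Hspa1a had 710.8, 1233 and 2512 on KO arrays against 37.8, 218.1 and 1208 on WT arrays. Hspa1b had 1725, 3225 and 6297 on KO arrays against 42.3, 414.7 and 4382 on WT arrays. In untreated macrophages, Hspa1a stood at 1119, 1010 and 1712 in KO against 792.0, 636.9, 103.4 and 91.7 in WT, so the 4 WT arrays split into a higher and a lower pair. Replicates 1 and 2 were also the higher WT pair after e6, at 544.1 and 421.2 against 95.6 and 81.1 at 2 h. At 4 h after e6 they stood at 484.7 and 388.5 against 223.3 and 87.4. The WT mock and e7 arrays did not split in this way.

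**Figure D2:**
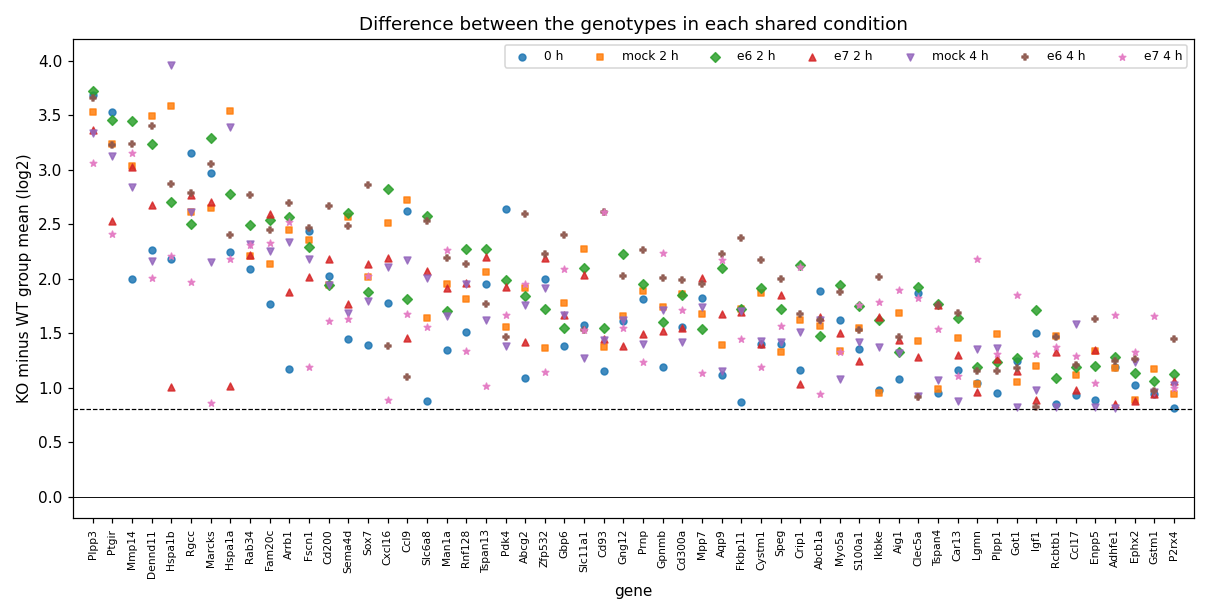
KO minus WT group mean (log2, vertical axis) of each of the 56 genes (horizontal axis) in the 7 shared conditions, 1 marker per condition. The dashed line is the selection limit of 0.8, and the mean differences run from 3.48 for Plpp3 down to 1.06 for P2rx4, with wide scatter for Hspa1b, Hspa1a and Marcks.

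The size of the difference varied between conditions. The median over the 56 genes was 1.42 in untreated macrophages, 1.71 after mock, 1.86 after e6 and 1.65 after e7 at 2 h, and 1.62 after mock, 2.01 after e6 and 1.66 after e7 at 4 h. The untreated condition gave the smallest difference in 20 genes, and e6 at 4 h the largest in 19. After e6 at 4 h, 32.6% to 33.1% of probe sets were under 50 on KO arrays, against 43.0% to 43.9% on WT arrays. The part of this share was not tested. The spread over conditions was under 1 in 25 genes and over 2 in 3, which were Hspa1b, Hspa1a and Marcks. Hspa1b differed by 3.96 after mock at 4 h and by 1.005 after e7 at 2 h. Plpp3 stayed between 3.06 and 3.72.

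Other probe sets of the same genes gave a further reading of the same contrast. They numbered 44 for 29 of the genes. Of these 44, 29 were higher in KO in all 7 conditions and 15 by at least 0.8 in each. Another 12 had a KO median under 50, where the floor leaves little room for a difference. The other 3 belonged to Fscn1, Prnp and Slc6a8.

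The genes were spread over 20 chromosomes. Cybb lies on chromosome X, where Rnf128 and Slc6a8 were the only members, 276 and 126 measured genes away from it, and chromosome X held 3.57% of the set against 3.25% of the measured genes. Chromosome 6 held 6 genes, 10.7% against 5.86%, and chromosome 14 held 5, 8.93% against 3.53%. Those on chromosome 14 were Mmp14, Rgcc, Sox7, Ephx2 and Rcbtb1. Besides the HSP70 pair, 4 pairs had at most 20 measured genes between them. Dennd11 and Clec5a had 3, Gng12 and Abcg2 had 7, Sox7 and Ephx2 had 16, and Aqp9 and Myo5a had 17.

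The 2 WT bead arrays were not used by the rule for its differences. For 49 of the 56 genes both bead arrays lay nearer the WT mock mean at 4 h than the KO mock mean, which was so for 30.5% of all genes, a share that counts genes with and without a gap between the genotypes. For 6 genes 1 bead array did, and for Adhfe1, at 142.4 and 153.0, neither did. Without the 3 WT arrays high in neutrophil markers the count was 45, with no matching share over all genes given here. The rule had set the KO and WT mock means at least 0.8 apart, so nothing is read from these counts. Sox7 stood at 13.2 and 4.24 on the bead arrays, under every KO array. Cd300a stood at 336.4 and 381.4, where the lowest KO array had 1047.

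The response to an exposure within a genotype is another contrast than the rule's, but it is made of the same group means. A gene whose KO signal fell, or whose WT signal rose, far enough to close the gap in any condition could not be in the set, so the counts below are not free of the selection. The response was tested with limma on all tested probe sets, with Benjamini-Hochberg adjustment, a call at an adjusted p under 0.05 and a two-sided test. Over 13 comparisons the 56 genes gave 30 calls in 728 tests, in 20 genes. In 23 of the 30 the arrays of the 2 groups did not overlap. Comparisons of 1 genotype share their mock or untreated arrays, so the same mock arrays stand behind several calls.

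In KO macrophages 2 h after the e7 dose, 5 of the 56 genes fell and 1 rose against mock, where 4.82% of all 9856 tested genes fell and 10.8% rose. Clec5a fell, with 552.8, 700.6 and 508.4 after e7 against 1627, 1323 and 1192 after mock, by 1.23 ± 0.26 (SE of the log2 difference, limma adjusted p = 0.00115). S100a1 fell, with 5094, 4625 and 4443 after e7 against 9133, 9068 and 9009 after mock, by 0.94 ± 0.21 (limma adjusted p = 0.00181). The groups did not overlap in either gene, and both calls held without each array in turn. Untreated KO arrays had 1206, 1024 and 652.1 for Clec5a and 8230, 5893 and 4343 for S100a1.

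Igf1 fell by 0.85 ± 0.24 (limma adjusted p = 0.0144), with 612.3, 531.0 and 558.4 after e7 against 904.0, 955.2 and 1240 after mock, and without mock replicate 3 the adjusted p was 0.0916. Gstm1 fell by 0.80 ± 0.23 (limma adjusted p = 0.0159), and without e7 replicate 2 the adjusted p was 0.0709. Crip1 fell by 1.001 ± 0.35 (limma adjusted p = 0.0459), a call lost without any 1 of the 6 arrays. Ikbke rose by 0.73 ± 0.23 (limma adjusted p = 0.0296), which rested on mock replicate 2 at 44.3, and without that array the difference was 0.25 (adjusted p = 0.467). The log2 3'/5' ratio of the controls was 1.45 to 2.997 after e7 and 0.92 to 1.22 after mock, and its part was tested only as a covariate, under which Crip1 (adjusted p = 0.115) and Ikbke were no longer called. Probe sets under 50 made up 34.9%, 37.3% and 32.7% of the e7 arrays against 43.2%, 42.0% and 42.9% of the mock arrays. The part of this share was not tested.

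In KO macrophages 4 h after the e6 dose, 6 of the 56 genes rose and 0 fell against mock, where 5.75% of all genes rose and 0.375% fell. Sox7 rose, with 311.8, 388.6 and 392.8 after e6 against 153.5, 160.3 and 213.0 after mock, by 1.06 ± 0.27 (limma adjusted p = 0.00885). Speg rose by 0.96 ± 0.30 (limma adjusted p = 0.0467), Car13 by 0.86 ± 0.27 (0.0477) and Myo5a by 0.80 ± 0.22 (0.0196). Ikbke rose by 0.78 ± 0.23 (limma adjusted p = 0.0357) and Fkbp11 by 0.66 ± 0.18 (0.0177). The log2 3'/5' ratio of the controls was 1.83 to 3.99 after e6 and 1.41 to 2.61 after mock, and with it as a covariate Car13 (adjusted p = 0.105), Ikbke (0.0804) and Speg (0.0808) were no longer called. Probe sets under 50 made up 32.6%, 33.1% and 32.8% of the e6 arrays against 37.4%, 40.1% and 35.8% of the mock arrays. The part of this share in the rises was not tested. With the compared groups alone in the fit, or with no floor, 0 of the 56 genes were called. Each of the 6 calls was lost without at least 1 array. Mock replicate 1 was the array whose loss raised the adjusted p most for Sox7 (0.0527), Myo5a (0.107), Car13 (0.257), Ikbke (0.317) and Speg (0.357), and e6 replicate 1 that for Fkbp11 (0.162).

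In KO macrophages 0 of the 56 genes were called after e6 at 2 h, where 0.0% of all genes were called, after mock at 2 h against untreated, where 0.0% were, and after e7 at 4 h, where 0.517% were. At an unadjusted p under 0.05 the same comparisons gave 2, 13 and 1 of the 56 genes. Of all 9856 tested genes they gave 266, 843 and 990. After mock at 4 h against untreated, Fkbp11 rose by 0.84 ± 0.18 (limma adjusted p = 0.00504) and 0 of the 56 genes fell, where 2.13% of all genes rose and 0.284% fell. Untreated replicate 2 weighed most there, and without it the adjusted p was 0.111.

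In WT macrophages 2 h after the e7 dose, 1 of the 56 genes rose and 2 fell against mock, where 2.41% of all genes rose and 2.08% fell. Hspa1a rose, with 546.9, 1208, 303.4 and 1107 after e7 against 159.7, 113.1, 142.4 and 98.2 after mock, by 2.44 ± 0.61 (limma adjusted p = 0.0190). Every e7 array lay above every mock array, and without e7 replicate 4 the adjusted p was 0.0692. Its near-identical copy Hspa1b was not called. Hspa1b had 927.1, 4382, 697.7 and 3397 after e7 against 344.9, 410.9, 378.6 and 181.6 after mock, also without overlap. Clec5a fell against mock by 1.09 ± 0.23 (limma adjusted p = 0.00406), and held without each array in turn. It had 269.7, 236.2, 238.6 and 215.8 after e7 against 477.3, 554.5, 545.7 and 468.7 after mock. Untreated WT arrays had 234.2, 235.8, 272.1 and 278.9, so the e7 arrays overlapped the untreated ones and the mock arrays lay above both.

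S100a1 fell by 0.64 ± 0.18 in the same comparison (limma adjusted p = 0.0332), and without e7 replicate 1 the adjusted p was 0.122. It had 1683, 1902, 2432 and 2004 after e7 against 3072, 2919, 3326 and 3119 after mock. Untreated WT arrays had 2301, 2144, 2489 and 2380. The log2 3'/5' ratio of the controls was 2.09 to 4.85 after e7 and 0.93 to 1.47 after mock in WT. With that ratio as a covariate the differences were -0.75 for Clec5a (adjusted p = 0.110), -0.20 for S100a1 (0.606) and 2.52 for Hspa1a (0.0829).

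In WT macrophages 4 h after the e7 dose, 3 of the 56 genes rose and 5 fell against mock, where 8.78% of all genes rose and 16.0% fell. Cd93 fell, with 171.6, 204.7, 157.6 and 249.7 after e7 against 559.0, 508.9, 363.2 and 520.5 after mock, by 1.32 ± 0.28 (limma adjusted p = 0.000714). Clec5a fell, with 249.1, 310.3, 225.4 and 300.7 after e7 against 442.8, 451.0, 623.1 and 415.4 after mock, by 0.83 ± 0.23 (limma adjusted p = 0.00650). Both calls held without each array in turn. Untreated WT arrays of Clec5a, at 234.2 to 278.9, overlapped the e7 arrays and lay below the mock arrays. Those of Cd93, at 321.6 to 567.3, lay above every e7 array. Without mock replicate 3 and e7 replicate 3, which were high in neutrophil markers, and e6 replicate 4, Cd93 kept its call at -1.36 (adjusted p = 0.00307) and Clec5a lost it at -0.61 (0.125).

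Hspa1a rose by 1.83 ± 0.61 after e7 at 4 h (limma adjusted p = 0.0260), Cxcl16 by 1.04 ± 0.30 (0.0107) and Rnf128 by 0.68 ± 0.19 (0.00869). Hspa1b was not called, with 357.4, 1043, 1521 and 625.4 after e7 against 249.0, 310.6, 310.7 and 42.3 after mock. Aqp9 fell by 0.77 ± 0.28 (limma adjusted p = 0.0437), Gstm1 by 0.57 ± 0.20 (0.0362) and Rab34 by 0.53 ± 0.18 (0.0307). The Rab34 arrays after e7 were all under 50, so that fall is bounded by the floor. Without e7 replicate 3 the adjusted p was 0.119 for Hspa1a, 0.0854 for Rnf128 and 0.198 for Gstm1. Without mock replicate 3 it was 0.208 for Aqp9 and 0.0801 for Rab34, and without mock replicate 4 it was 0.0763 for Cxcl16. Without the 3 arrays high in neutrophil markers the calls numbered 2, Cd93 and Cxcl16, in place of 8.

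In WT macrophages 0 of the 56 genes were called after e6 at 2 h, where 0.0% of all genes were called, after mock at 2 h against untreated, where 0.0% were, and after e6 at 4 h, where 0.0304% were. At an unadjusted p under 0.05 the same comparisons gave 3, 9 and 6 of the 56 genes. Of all 9856 tested genes they gave 304, 1105 and 413. Without the 3 arrays high in neutrophil markers, Cd93 was called after e6 at 4 h. After mock at 4 h against untreated, Rgcc rose, with 1156, 1078, 2273 and 968.8 after mock against 699.2, 629.9, 369.8 and 564.0 untreated, by 1.23 ± 0.26 (limma adjusted p = 0.0475), and 0 of the 56 genes fell, where 0.0507% of all genes rose and 0.101% fell. Without mock replicate 3 the difference was 0.95 (adjusted p = 0.329).

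With beads against mock at 4 h in WT, 2 of the 56 genes rose and 3 fell, where 7.83% of all genes rose and 2.72% fell. Rnf128 rose, with 417.6 and 528.8 with beads against 182.7, 202.5, 284.4 and 288.0 with mock, by 1.002 ± 0.24 (limma adjusted p = 0.00693), and Plpp3 rose by 0.97 ± 0.33 (0.0486). Clec5a fell by 1.12 ± 0.28 (limma adjusted p = 0.00875), Tspan4 by 1.42 ± 0.38 (0.0127) and S100a1 by 0.73 ± 0.22 (0.0281). Without bead replicate 1 none of the 5 was called, with adjusted p from 0.131 for Rnf128 to 0.986 for Plpp3, and the lone bead array was then assumed to vary like the other groups. Bead replicate 1 is the array with 30.1% of probe sets under 50. Without the 3 WT arrays high in neutrophil markers, 7 of the 56 genes were called in place of 5. The bead arrays had log2 3'/5' ratios of 4.11 and 5.32, against 1.19 to 2.34 with mock, and with that ratio as a covariate 0 of the 56 genes were called.

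**Figure D3:**
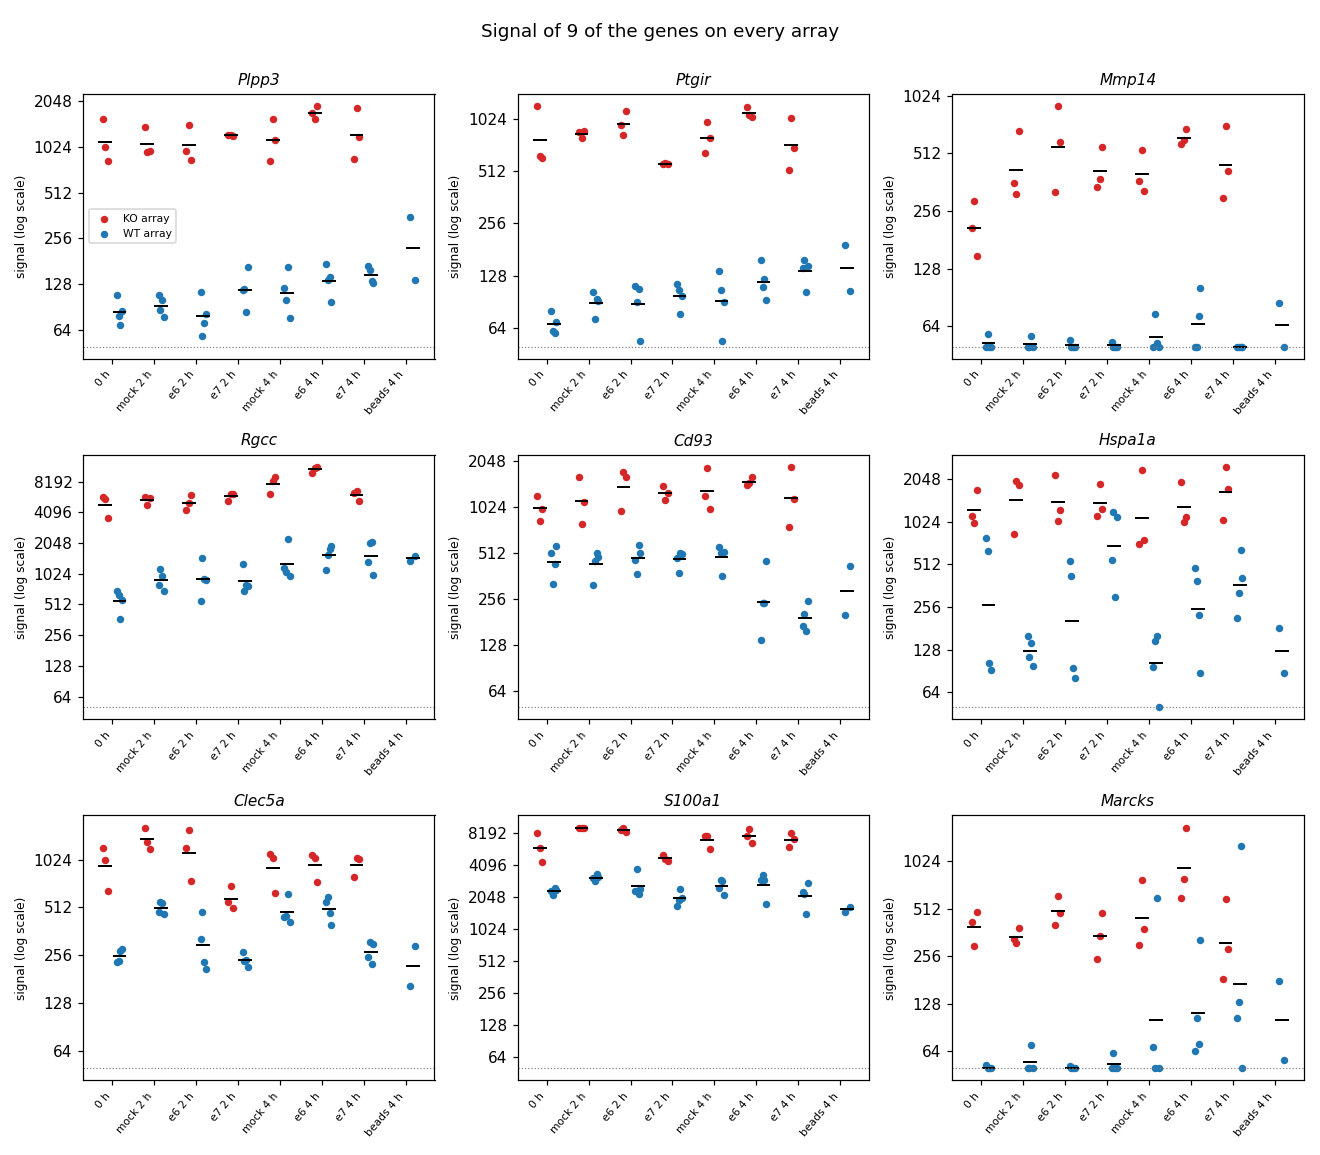
Signal (log scale, signals under 50 drawn at 50, dotted line) of 9 of the genes on every array, KO left of WT within a condition, with a bar at the mean of the log2 values. The KO arrays lie above the WT arrays throughout for Plpp3, Ptgir, Mmp14, Rgcc, Cd93 and S100a1, while Clec5a, Hspa1a and Marcks overlap. Clec5a and S100a1 are lower after e7 than after mock at 2 h in each genotype.

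**Figure D4:**
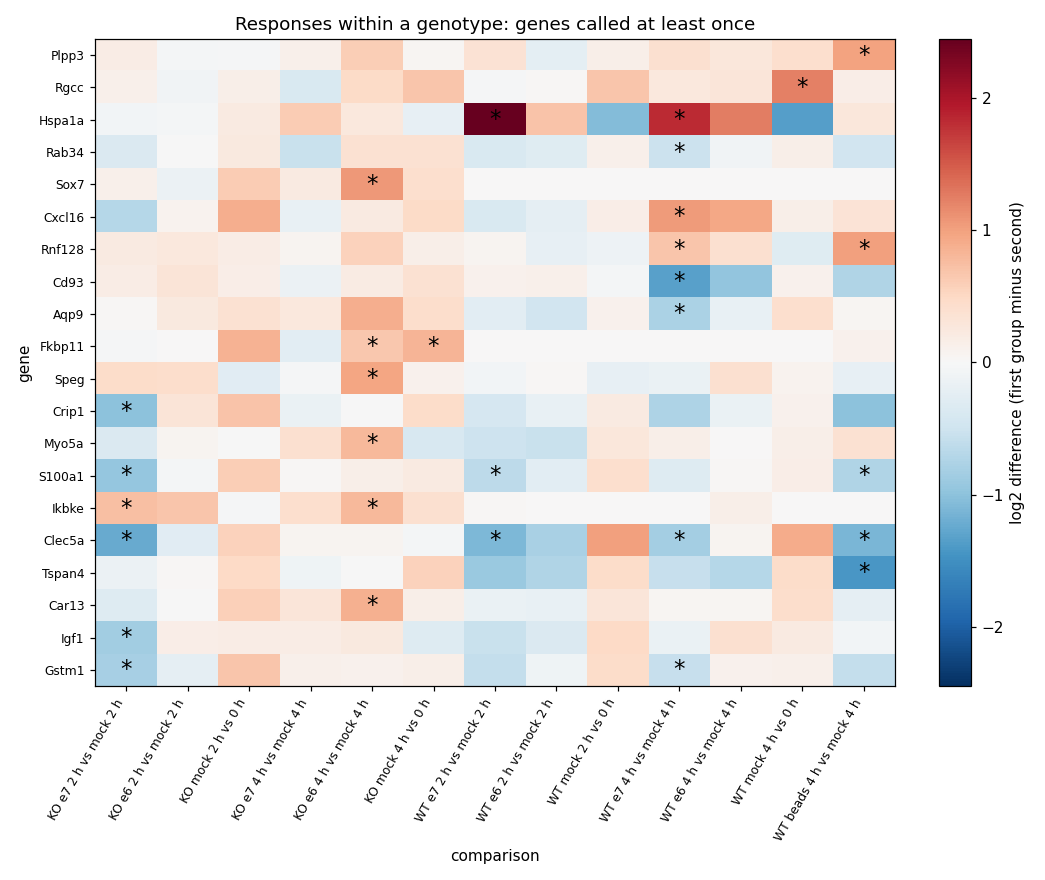
Log2 difference (colour, first group minus second) of the 20 genes called at least once, in the 13 comparisons within a genotype, with an asterisk at each of the 30 calls. The asterisks sit mostly in the columns of KO e7 at 2 h, KO e6 at 4 h, WT e7 at 4 h and beads, and Clec5a has 4 of them.

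For genes outside the set, the average of the 7 KO minus WT differences was tested, with the 56 genes and the left-out genes removed from each list. Over all 9856 tested genes 23.5% were higher and 17.7% lower in KO, with a median of 0.03, and with quantile normalization the shares were 17.1% and 21.4%. The lists were chosen with results of these data known. Of 17 genes for matrix proteases and their inhibitors 10 were higher in KO and 0 lower, with a median of 0.25. Ctsk, the lysosomal collagenase cathepsin K, had 13320, 16540 and 20420 on KO arrays against 5678, 8354 and 11970 on WT arrays, a difference of 0.95 ± 0.06 (limma adjusted p = 8.83e-17). Mmp2, the gelatinase that Mmp14 activates, differed by 0.78 ± 0.14 (limma adjusted p = 1.3e-05) with a KO median of 76.3 and no WT array above 36.8.

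Of 17 genes for lipid handling 11 were higher and 1 was lower. Apoe, which carries lipid out of macrophages, had 253.9, 547.4 and 1035 on KO arrays against 29.4, 197.8 and 956.4 on WT arrays, a difference of 1.38 ± 0.20 (limma adjusted p = 4.2e-07). Of 20 genes for glutathione and antioxidant defence, the list that holds Gstm1, 11 were higher and 1 lower, and with quantile normalization 7 and 1. Hmox1, heme oxygenase 1, differed by 1.003 ± 0.12 (limma adjusted p = 9.18e-09) and Slc7a11, the cystine transporter, by 1.01 ± 0.19 (5.36e-05). Of 20 cell cycle genes 0 were higher and 13 lower. Top2a, a topoisomerase of dividing cells, differed by -0.46 ± 0.08 (limma adjusted p = 5.14e-06) and Mki67, the proliferation marker, by -0.32 ± 0.07 (0.000274).

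Among the other pathway lists, KO was higher in 3 and lower in 0 of 6 NADPH oxidase genes, in 4 and 3 of 11 genes of alternative activation, the list that holds Ccl17, and in 8 and 0 of 18 interferon-responsive genes. It was higher in 7 and lower in 2 of 13 complement genes, in 4 and 1 of 10 genes of MHC class II, and in 4 and 0 of 12 genes of MHC class I. Of the marker lists, KO was higher in 4 and lower in 1 of 12 alveolar macrophage genes, in 9 and 0 of 13 monocyte and dendritic cell genes, in 1 and 1 of 10 neutrophil genes, and in 5 and 0 of 9 endothelial and stromal genes. The summed monocyte and dendritic cell markers were 11600 to 16800 on KO arrays and 8495 to 24430 on WT arrays. Csf1r and Cd14 made up most of it, with medians of 9194 and 3392 on KO arrays and 7750 and 2979 on WT arrays. Cd14 was not called and reached 14740 on a WT array. Ccr2, Flt3 and Ccr7 of the list had KO medians of only 115.3, 63.6 and 103.7. Quantile normalization gave 5 and 0 of 12 for the monocyte and dendritic cell list, and 3 and 0 of 8 for the endothelial and stromal list. The summed endothelial and stromal markers were 1849 to 3968 on KO arrays and 957.9 to 2001 on WT arrays. Kdr, Vwf, Col1a1, Col1a2 and Acta2 of that list were higher in KO, and Pecam1, Dcn and Pdgfrb were under 50 on all arrays. Vwf made up most of that sum, with 1516, 2158 and 3295 on KO arrays against 375.1, 1169 and 1499 on WT arrays. KO was higher in 4 and lower in 0 of 9 T and NK cell genes, in 4 and 0 of 5 B cell genes, in 1 and 0 of 5 eosinophil and mast cell genes, in 4 and 1 of 16 lung epithelial genes, in 0 and 0 of 5 erythroid genes, and in 1 and 1 of 8 sex-linked genes. The T and NK cell genes called higher all had medians under 50 in both genotypes. Cd4, for example, had 36.2 on KO arrays and 5.07 on WT arrays. The same was so of Ms4a1 and Blnk, but not of Ighm and Cd22, in the B cell list. It was also so of Cd209a, Zbtb46, Cx3cr1, Mgl2, Cma1, Foxj1, Ager, Aqp5, Col1a1 and Col1a2 in other marker lists. Differences of such genes rest on the arrays above the floor of 50. With quantile normalization the lung epithelial list turned to 0 higher and 2 lower of 16. The same setting gave 2 and 0 of 6 for T and NK cells, 2 and 0 of 4 for B cells, 2 and 1 of 10 for MHC class II, and 2 and 3 of 11 for alternative activation. The part of other cell types in the 56 differences was not tested.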

How the data were processed

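RNA of mouse alveolar macrophages was extracted with RNeasy and labelled in 2 cycles for Affymetrix arrays, per the labels' protocols. The authors deposited 1 signal intensity per probe set and array. GCOS and RMA are named in the submitters' processing notes without a role or version, and the 2%-trimmed mean of every deposited array was 500.2. Array medians were 68.5 to 118, and the number of arrays limits the precision.

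Of 22690 probe sets, 64 controls were removed. A single gene symbol was given for 20380 probe sets, several for 691 and none for 1555, and only the first kind named a gene. Signals under 50 were set to 50 before log2. Probe sets at 50 or more on at least 3 arrays (17166, for 9856 genes) entered a limma fit (version 3.58.1, under R 4.3.3) with 1 mean per group over all 51 arrays, 15 groups and a trended eBayes prior. The pooled spread understates the error of groups that vary more, such as those of Hspa1a. P-values were adjusted by Benjamini-Hochberg over all tested probe sets. Tests on simulated data called 70% of changes of 1 and 81% of changes of 2 on the log2 scale for WT e7 at 4 h, and 59% and 78% for KO e7 at 2 h. The labels call replicates biological without naming the mice, so p-values measure the spread between these arrays.

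The 56 genes and the gene lists were chosen with earlier results of these data known. Genes named for a response are those called. Alternatives were other floors, quantile normalization, an untrended prior, no filter, the 3'/5' ratio as a covariate, a replicate block, the compared groups alone, each array left out and, chosen after seeing the data, the 3 WT arrays high in neutrophil markers left out. The rule and the mean differences were also taken with the mean of all probe sets of a gene. RefSeq tables (GRCm38.p6) gave gene order and promoters. The build of the probe annotation is not given in the sources used here.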

Additional observations from a re-analysis of the deposited data

Results flagged for a closer look

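A lone array was sought in every WT group of 4, for each of the 56 genes and for their mean, by its gap to the nearest other array over the range of the group. Of 365 such sets with any spread, 42 had a gap above the 95% limit, which chance exceeds in about 1 of 20. In 26 of them the other 3 arrays all stood at the floor of 5.64 (log2), so the gap was 1.0 by construction and the lone array lay between 5.67 and 6.69. These were 4 groups each of Mmp14, Prnp and Marcks, 3 each of Abcb1a and Ephx2, 2 each of Fam20c and Ikbke, and 1 each of Rab34, Zfp532, Slc6a8 and Enpp5.

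The other 16 had arrays above the floor beside the lone one. In WT mock 4 h replicate 3, the array with a summed neutrophil signal of 26770, Slc11a1 stood at 10.19 with the others at 5.82 to 6.45 (gap 0.8548), Tspan13 at 9.36 with the others at 6.65 to 6.93 (0.8982), Marcks at 9.23 with the others at 5.64 to 6.10 (0.8732) and the mean over the 56 genes at 7.87 with the others at 7.43 to 7.50 (0.8424). In WT e6 4 h replicate 4, also high in neutrophil markers, Aqp9 stood at 8.67 with the others at 7.20 to 7.30 (0.9323). In WT e6 2 h replicate 2, Gstm1 stood at 11.83 with the others at 10.95 to 10.99 (0.9524) and Got1 at 7.75 with the others at 7.51 to 7.53 (0.9191). In WT e7 2 h replicate 4, Arrb1 stood at 7.35 with the others at 6.06 to 6.20 (0.8888) and Fam20c at 6.19 with the others at 5.64 to 5.69 (0.9194). Hspa1b was at the floor in WT mock 4 h replicate 4 with the others at 7.96 to 8.28 (0.8787). Lgmn was low in WT e6 2 h replicate 4, at 9.96 with the others at 10.34 to 10.37 (0.9347). P2rx4 stood at 10.99 in WT e7 4 h replicate 1 with the others at 10.27 to 10.37 (0.8626), and Pdk4 at 8.16 in WT mock 2 h replicate 1 with the others at 8.05 to 8.06 (0.8391). Near the floor, the gap was 0.8755 for Mmp14 in WT mock 4 h replicate 2, 0.9117 for Ephx2 in WT mock 2 h replicate 3 and 0.8377 for Ephx2 in WT mock 4 h replicate 1.

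In 8 cases every exposed KO array lay on one side of the KO mock mean and every exposed WT array on the other side of the WT mock mean. The differences between the responses, KO minus WT, were not tested. After e7 at 2 h the difference was -1.263 for Ccl9 (-0.60 in KO, 0.66 in WT), -0.8136 for Dennd11 (-0.32 in KO, 0.50 in WT) and 0.8294 for Zfp532 (0.28 in KO, -0.55 in WT). After e6 at 4 h it was 1.1765 for Cd93 (0.21 in KO, -0.97 in WT), 0.8318 for Abcg2 (0.48 in KO, -0.35 in WT) and 0.6402 for Rcbtb1 (0.44 in KO, -0.20 in WT). After e6 at 2 h it was 0.9357 for Slc6a8 (0.81 in KO, -0.12 in WT) and 0.6411 for Marcks (0.53 in KO, -0.11 in WT). In both of these last genes the WT value comes from the floor, since all e6 arrays of Slc6a8 and all but replicate 1 (52.0) of Marcks were under 50, as were all mock arrays but 1, so no WT movement is read from it.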

How the results depend on the processing

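The rule kept 91 genes with a smallest difference of 0.6 and 36 with 1, in place of 56. It kept 43 with a floor of 100, 79 with a floor of 20 and 48 to 60 without each array in turn. Only 31 of the 56 genes stayed in the set whichever array was left out. Rcbtb1 was lost without any 1 of 9 arrays and Adhfe1 without any 1 of 5. Quantile normalization kept 52 genes, 47 of them among the 56. The mean of all probe sets of a gene kept 46, 44 of them among the 56. All 224 alternative mean differences of the 56 genes were above 0, from 0.21 to 3.70. The genes were selected for that sign, so nothing is read from it. The sizes depended on the processing. With a floor of 100 the mean difference was 0.21 for Ephx2, 0.34 for Enpp5 and 0.57 for Ikbke. With a floor of 20 these 3 genes had 1.41, 1.92 and 2.47. With the mean of all probe sets of a gene, Fscn1 had 0.52 in place of 2.13 and Fkbp11 0.58 in place of 1.65. Of 458 alternative values of the 30 response calls, 297 stayed past the threshold in the same direction, 161 did not and 0 turned. Counts of called genes moved as follows, and the cause was not tested. KO e7 at 2 h gave 6, and 10 with the compared groups alone and 3 to 5 without single arrays. KO e6 at 4 h gave 6, and 0 with no floor, 11 with a floor of 100, 3 with quantile normalization, 0 with the compared groups alone and 0 to 6 without single arrays. KO mock at 4 h against untreated gave 1, and 0 with no floor, a floor of 100, quantile normalization and the compared groups alone, and 0 to 1 without single arrays. KO e7 at 4 h gave 0, and 1 with a floor of 100. KO mock at 2 h against untreated gave 0, and 0 to 1 without single arrays. WT e7 at 2 h gave 3, and 0 with the 3'/5' covariate and 1 to 5 without single arrays. WT e7 at 4 h gave 8, and 5 with a floor of 100, 1 with the compared groups alone, 2 without the 3 arrays high in neutrophil markers (an alternative chosen after seeing the data) and 3 to 12 without single arrays. WT e6 at 4 h gave 0, and 1 without those 3 arrays and 0 to 1 without single arrays. WT beads gave 5, and 2 with no floor, 0 with the 3'/5' covariate, 0 with the compared groups alone and 0 to 6 without single arrays. WT mock at 4 h against untreated gave 1, and 0 with no filter, with the compared groups alone and without those 3 arrays, and 0 to 1 without single arrays. With a replicate block it gave 2, and WT mock at 2 h against untreated, which gave 0, gave 1 with the replicate block, 2 with the compared groups alone and 0 to 1 without single arrays. Whether the replicate numbers pair the arrays was left undecided. The median correlations of same-numbered arrays were -0.04 to 0.22, the lowest was -0.41 and the highest 0.48. Arrays with different numbers were not compared with them.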
